A study of Mus musculus with 6 samples.

Results

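De novo lipogenesis builds fatty acids from acetyl units. The genes described here are 10 mouse genes that encode its enzymes and 2 of its regulators: Acly, Me1, Acaca, Acacb, Fasn, Elovl6, Scd1, Scd2, Srebf1 and Thrsp. They were picked out by gene symbol, and all 10 were found among the 55401 gene IDs of the count table. Polyadenylated RNA of mouse aorta was sequenced from 2 groups of 3 samples each, ApoE-/- and IL16-/-ApoE-/-, the latter termed double knockouts below. By their genotype labels, both groups lack apolipoprotein E, which clears remnant lipoproteins from the blood. The double knockouts, by theirs, also lack interleukin-16, a cytokine that binds CD4. Feeding with a high-fat diet began at 8 weeks of age in every group and lasted 24 weeks. The labels name no strain, sex or number of mice per sample, so p-values cover no more than the variation among the samples at hand, possibly technical. The comparison asks what losing interleukin-16 does to aortic gene expression in such mice.

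In the pathway, ATP citrate lyase cleaves cytosolic citrate to acetyl-CoA, acetyl-CoA carboxylase turns part of it into malonyl-CoA, and fatty acid synthase joins these units into palmitate with reducing power from NADPH. Palmitate is then elongated and desaturated, and most of the product is esterified into triglyceride. Transcription of these enzymes is driven by SREBP-1c and, after carbohydrate feeding, by ChREBP. Fat cells and liver are the tissues best known for it, and the aorta is wrapped in perivascular fat.

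Levels are given as CPM, each gene's share of a library's counts scaled by TMM, in libraries of 42861980 to 85568269 counts. All 10 genes passed the filter on low counts. Libraries of the ApoE-/- group were far less alike than the double knockouts, with a biological coefficient of variation of 0.590 against 0.209. ApoE-/- 1 stood apart. There Xist, transcribed from the inactive X, was at 474 CPM (0.497 to 6.21 in the other 5 libraries), and Ddx3y, a gene of the Y, at 0.143 CPM (70.1 to 136 in the others). Sex and whatever else sets ApoE-/- 1 apart cannot be told apart, so the group tests below are given with and without it. Il16, the targeted gene, had 28.3, 28.7 and 15.1 CPM in ApoE-/- 1, 2 and 3, against 7.93, 12.1 and 12.2 CPM in the double knockouts (log2 fold change -1.16, edgeR adjusted p = 0.163). Apoe transcripts, still counted in both groups, rose from 20.9 to 45.0 CPM to 137 to 183 CPM (2.34, adjusted p = 0.0369). The genotypes are therefore taken from the labels, and these counts do not show them. Smooth muscle genes of the aortic wall were present in all libraries, such as Myh11 at 1158 to 8497 CPM. Kidney transcripts such as Kap were counted in the double knockouts and not in ApoE-/-. Skeletal muscle markers were also higher in every double knockout library, summing to 21.7 to 395.5 CPM against 3.51 to 12.0 CPM. Whether the tissue taken was the same in both groups was not tested, which bears on every group difference below.

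With every library in, no lipogenesis gene passed the test between the groups, and the spread among the ApoE-/- libraries was wide. By edgeR's quasi-likelihood test with Benjamini-Hochberg adjustment over 19833 genes, 0 of 10 passed an adjusted p of 0.05, and 0 had an unadjusted p under 0.05. Of all genes tested 1.2% passed (1.14% higher and 0.0605% lower in the double knockouts), and 15.9% had an unadjusted p under 0.05. DESeq2, which gave Thrsp no adjusted p, and limma-voom also called 0 of the 10. With limma-voom and sample weights 1 of 10 was called, Thrsp (log2 fold change 1.80, adjusted p = 0.0289), higher in the double knockouts, where that test called 16.9% of all genes, 9.39% higher and 7.5% lower. Fold changes were negative for 6 genes and positive for 4, with a median log2 value of -0.24, against -0.05 over all genes tested. In none of the 10 did all libraries of one group lie above all of the other, which 26.4% of tested genes showed. The libraries had a common order in most of the genes: ApoE-/- 1 was the highest of the 6 libraries for 9 of the 10 genes (22.6% of tested genes), ApoE-/- 2 and 3 were mostly the lowest, and the double knockouts lay between them. In bulk tissue, fewer cells of a type and less RNA per cell cannot be told apart.

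**Figure D1:**
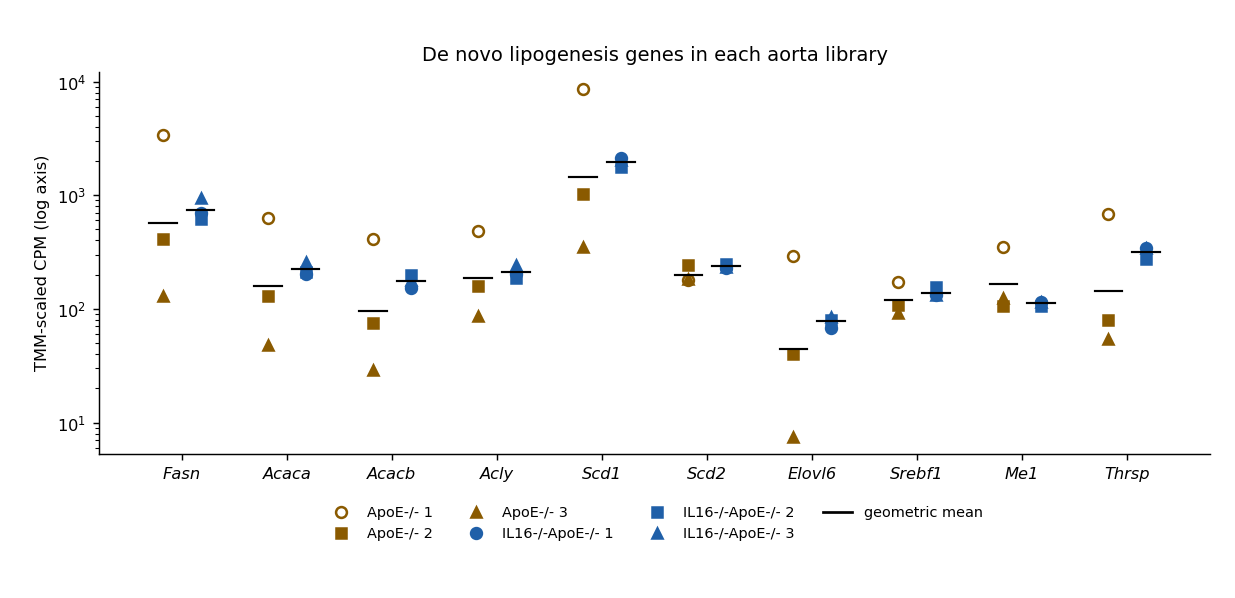
TMM-scaled CPM on a log axis for the 10 lipogenesis genes, 1 point per library, with ApoE-/- in brown (ApoE-/- 1 as an open circle), double knockouts in blue and the geometric mean of each group as a black line. ApoE-/- 1 is the top point for every gene but Scd2, and the 3 double knockouts sit close together, from 614 to 954 CPM for Fasn.

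Substrate supply was examined first. Acly (ENSMUSG00000020917, GRCm38 chromosome 11, 100476353 to 100528000, minus strand) encodes ATP citrate lyase, the source of cytosolic acetyl-CoA. It was at 488, 158 and 86.0 CPM in ApoE-/- 1, 2 and 3 against 204, 188 and 241 CPM in double knockouts 1, 2 and 3. The double knockouts lay inside the 5.68-fold range of the ApoE-/- libraries (log2 fold change -0.21, SE 0.61, adjusted p = 0.883). Me1 (ENSMUSG00000032418, chromosome 9, 86581371 to 86695953, minus strand) encodes cytosolic malic enzyme, which makes NADPH. Its levels were 349.8, 106 and 124 CPM in ApoE-/-, against 115, 106 and 116 CPM in the double knockouts. Only ApoE-/- 1 was high, and ApoE-/- 2 and 3 overlapped the double knockouts (log2 fold change -0.79, SE 0.47, adjusted p = 0.444 with all libraries; -0.04, SE 0.12, adjusted p = 0.835 without ApoE-/- 1).

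The committed steps spread much further. Acaca (ENSMUSG00000020532, chromosome 11, 84129672 to 84401651, plus strand) encodes the cytosolic acetyl-CoA carboxylase that feeds synthesis. It was at 635, 129.6 and 48.2 CPM in ApoE-/- 1, 2 and 3, against 203, 212 and 258 CPM in the double knockouts (log2 fold change -0.27, SE 0.85, adjusted p = 0.893). Acacb (ENSMUSG00000042010, chromosome 5, 114146535 to 114250761, plus strand) encodes the carboxylase at the mitochondrial surface, whose malonyl-CoA restrains fatty acid oxidation. Counts of Acacb gave 408, 75.4 and 28.9 CPM in ApoE-/-, against 153, 197 and 178 CPM in the double knockouts (log2 fold change 0.04, SE 0.87, adjusted p = 0.985). Both carboxylases had ApoE-/- 1 above, and ApoE-/- 2 and 3 below, every double knockout library. Fasn (ENSMUSG00000025153, chromosome 11, 120805846 to 120824547, minus strand) encodes fatty acid synthase. Its 6 values were 3388, 411 and 129 CPM in ApoE-/-, against 703, 614 and 954 CPM in the double knockouts, a 26.2-fold range in the first group and a 1.55-fold range in the second (log2 fold change -0.79, SE 1.08, adjusted p = 0.737).

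Of the enzymes that modify palmitate, Elovl6 and Scd1 kept this order of libraries and Scd2 did not. Elovl6 (ENSMUSG00000041220, chromosome 3, 129532355 to 129638495, plus strand) encodes the elongase that makes stearate from palmitate. It had the widest range of the 10 among ApoE-/- libraries, 38.9-fold, with 289.5, 40.0 and 7.44 CPM, against 68.1, 80.6 and 85.4 CPM in the double knockouts (log2 fold change -0.53, SE 1.10, adjusted p = 0.831). Scd1 (ENSMUSG00000037071, chromosome 19, 44394455 to 44407879, minus strand) encodes the main stearoyl-CoA desaturase of fat and liver, which makes oleate. Scd1 reached 8585 CPM in ApoE-/- 1, against 1033 and 351 CPM in ApoE-/- 2 and 3 and 2118, 1786 and 2028 CPM in the double knockouts (log2 fold change -0.75, SE 1.06, adjusted p = 0.749). Scd2 (ENSMUSG00000025203, chromosome 19, 44293674 to 44306864, plus strand) encodes the desaturase paralogue known for wider expression, in brain among others. It was nearly level, at 180.4, 245 and 182 CPM in ApoE-/-, against 231, 246 and 233 CPM in the double knockouts (log2 fold change 0.22, SE 0.20, adjusted p = 0.603). Scd1 and Scd2 are neighbouring paralogues, and no source used here says how reads matching both were counted.

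The balance of the desaturases differed widely between libraries. The ratio of Scd1 to Scd2 CPM was 47.6, 4.22 and 1.93 in ApoE-/- 1, 2 and 3 and 9.18, 7.26 and 8.71 in the double knockouts. On the log2 scale it was 2.87 ± 2.41 (SD, n = 3) against 3.06 ± 0.18 (SD, n = 3), and the groups overlapped (exact two-sided permutation test, p = 1.0, adjusted p = 1.0 over 2 ratios). The ratio of Acaca to Acacb was 1.55, 1.72 and 1.67 in ApoE-/- and 1.32, 1.08 and 1.45 in the double knockouts. All 3 double knockouts lay below all ApoE-/- libraries (log2 difference -0.37, exact two-sided permutation p = 0.1, adjusted p = 0.2), where 0.1 is the smallest p that 3 against 3 allows. By level, the groups separated in 26.4% of single tested genes. The share among ratios of gene pairs was not computed.

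The regulators were Srebf1 and Thrsp. Srebf1 (ENSMUSG00000020538, chromosome 11, 60199089 to 60222581, minus strand) encodes SREBP-1, the transcription factor of the lipogenic enzymes. Counts cover the whole gene and do not separate its 1a and 1c forms, and Rai1 overlaps it on the opposite strand. It was at 173, 108 and 92.7 CPM in ApoE-/-, against 132, 155 and 132 CPM in the double knockouts (log2 fold change 0.16, SE 0.27, adjusted p = 0.780). This was a 1.87-fold range among the ApoE-/- libraries, against 26.2-fold for its target Fasn. Thrsp (ENSMUSG00000035686, chromosome 7, 97412938 to 97417730, minus strand) encodes Spot 14, a thyroid hormone-responsive protein that promotes lipogenesis. It stood at 683, 80.1 and 54.2 CPM in ApoE-/- 1, 2 and 3, against 342, 274 and 342 CPM in the double knockouts (log2 fold change 0.23, SE 0.92, adjusted p = 0.920). For Thrsp, ApoE-/- 2 and 3 were the farthest below the double knockouts of all 10 genes, with a double knockout mean 4.76 times theirs.

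Per length the genes rank differently than by CPM. As CPM per kilobase of transcript (RPKM, from median GENCODE lengths), the double knockout means were 409 for Scd1, 250.2 for Thrsp, 82.4 for Fasn, 49.4 for Acly, 43.4 for Scd2, 34.1 for Me1, 32.5 for Srebf1, 29.9 for Elovl6, 24.2 for Acaca and 20.4 for Acacb. The ranges over the 3 libraries did not overlap among Scd1, Thrsp, Fasn and the rest. In the lower part of that order, neighbours overlapped: Acly (44.1 to 56.4) with Scd2 (42.3 to 45.1), Me1 (32.3 to 35.1) with Srebf1 (30.6 to 36.0), Srebf1 with Elovl6 (26.1 to 32.7), and Elovl6 with Acaca (21.9 to 27.9), which overlapped Acacb (17.7 to 22.8). Scd2 and Me1 did not overlap. Scd1 alone made up 56.6% of the summed CPM of the 10 genes in ApoE-/- 1, 43.3% in ApoE-/- 2, 31.8% in ApoE-/- 3 and 44.4% to 49.6% in the double knockouts. The 10 genes together took 1.49%, 0.253% and 0.105% of all counts in ApoE-/- 1, 2 and 3, against 0.390% to 0.459%.

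Promoter sequence is shown for Fasn and Thrsp, since both had the library order of most members and both carry more than 1 CCAAT box, the motif of NF-Y, a factor known to act with SREBP. The 250 bases before the RefSeq start site are given (GRCm38.p6, minus strand, chr11:120824548-120824797 for Fasn and chr7:97417551-97417800 for Thrsp), with CCAAT and its reverse complement ATTGG in capitals.
Fasn: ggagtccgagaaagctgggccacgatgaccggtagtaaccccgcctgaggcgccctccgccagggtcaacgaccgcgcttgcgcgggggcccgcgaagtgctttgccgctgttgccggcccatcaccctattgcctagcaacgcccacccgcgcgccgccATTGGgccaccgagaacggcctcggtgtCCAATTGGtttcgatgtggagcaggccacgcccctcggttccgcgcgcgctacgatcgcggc
Thrsp: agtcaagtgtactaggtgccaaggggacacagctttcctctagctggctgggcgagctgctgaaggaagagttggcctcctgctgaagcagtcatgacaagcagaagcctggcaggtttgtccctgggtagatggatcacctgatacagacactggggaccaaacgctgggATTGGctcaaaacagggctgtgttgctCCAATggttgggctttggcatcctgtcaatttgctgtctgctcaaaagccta
Fasn held 3 boxes, 2 of which overlap, and Thrsp 2. RefSeq start sites were found for 8 of the 10 genes, all but Scd1 and Scd2, with 11 windows among them. The only windows of Acaca (chr11:84195188-84195437) and Acacb (chr5:114165268-114165517) lay inside the genes, which start at 84129672 and 114146535. They may therefore miss the main promoters. Me1 had its CCAAT only in a window inside the gene (chr9:86687228-86687527). In windows from 250 bases before to 50 after a start site, searched on both strands, 6 of these 8 genes held CCAAT (Fasn, Acacb, Acly, Srebf1, Me1 and Thrsp), as did 41.1% of all 27025 genes with such a window. GGGCGG, the GC box of Sp1, was found in 3 (Acly, Srebf1 and Me1), against 38.2% of all genes. The SREBP motif TCACNCCAC was in 0 of 8, against 1.44% of all genes, and the E-box CACGTG in 0 of 8, against 8.09%. These are matches of letters in short windows and show no binding.

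Leaving out ApoE-/- 1 changed the comparison. Thrsp, Acacb and Srebf1 then rose in the double knockouts, 3 of 10 members and 0 that fell, where 25.9% of 20177 tested genes passed, 13.1% higher and 12.8% lower, and 8 of the 10 had an unadjusted p under 0.05, as did 40.1% of all genes tested. Thrsp had a log2 fold change of 2.25 (SE 0.22, edgeR adjusted p = 0.00267), Acacb of 1.75 (SE 0.42, adjusted p = 0.0315) and Srebf1 of 0.48 (SE 0.13, adjusted p = 0.0451). Scd1 (1.51, SE 0.46, adjusted p = 0.0587), Acaca (1.33, SE 0.42, 0.0680), Acly (0.79, SE 0.27, 0.0831), Fasn (1.48, SE 0.51, 0.0869) and Elovl6 (1.72, SE 0.67, 0.118) did not pass. In 8 of the 10 genes, all but Scd2 and Me1, every double knockout library lay above both ApoE-/- 2 and ApoE-/- 3, which held for 30.6% of tested genes, while in 0 of 10 every one lay below them (28.6%). The median log2 fold change of the 10 was 1.41, against 0.01 over all genes. This fit rests on 2 ApoE-/- libraries, which themselves differed up to 5.37-fold (Elovl6). The sign of the fold change turned from negative to positive for Fasn, Acaca, Acly, Scd1 and Elovl6.

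**Figure D2:**
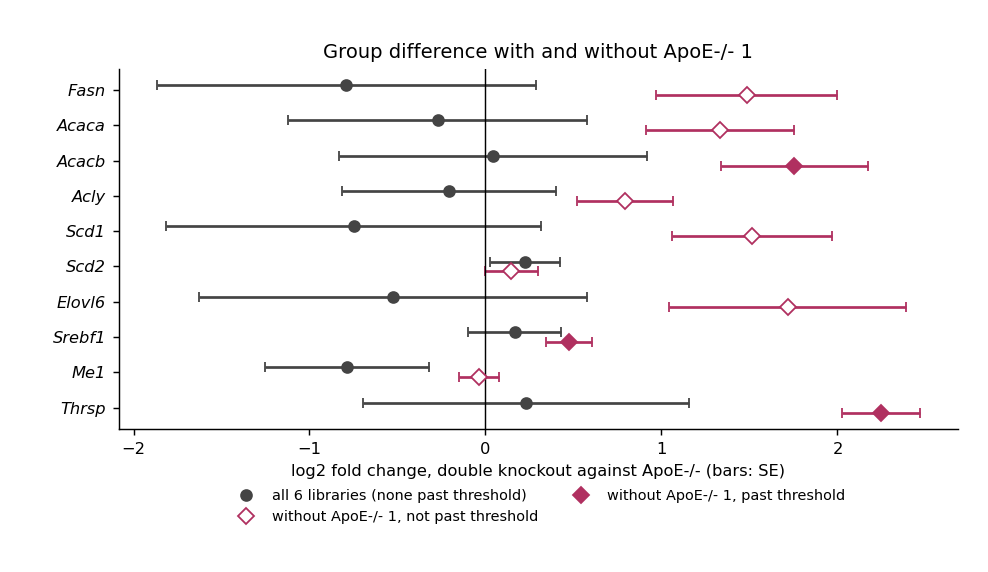
Log2 fold change of double knockout against ApoE-/- with its SE for each gene, from all 6 libraries (gray circles) and without ApoE-/- 1 (diamonds, filled where the adjusted p was under 0.05). Without ApoE-/- 1, Thrsp, Acacb and Srebf1 pass at 2.25, 1.75 and 0.48, while with all libraries every gene has an adjusted p of at least 0.444.

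The same turn of sign came from averaging on the log scale. Fasn had a mean of 9.14 log2 CPM in ApoE-/- and 9.54 in the double knockouts, a difference of 0.40, though its mean CPM was higher in ApoE-/- (1310 ± 1805 against 757 ± 176 CPM, SD, n = 3 each). Across the 10 genes the difference of log2 means was positive for all but Me1 (-0.57) and largest for Thrsp (1.15).

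Summed markers of fat cells were, like most of the lipogenesis genes, lowest in ApoE-/- 2 and 3. The 14 adipocyte markers, among them Fabp4 and Car3, summed to 13783, 2951 and 2192 CPM in ApoE-/- 1, 2 and 3 and to 10411 to 11102 CPM in the double knockouts. All 14 were detected, and ApoE-/- 1 was the highest library for 11 of them (22.6% of tested genes). With all libraries 1 of the 14 rose, the leptin gene Lep, from 0.871 to 2.05 CPM to 18.7 to 22.0 CPM (log2 fold change 3.90, edgeR adjusted p = 0.0168), and 11 rose without ApoE-/- 1. Over all tested genes, 1.14% rose with all libraries and 13.1% without ApoE-/- 1. Fabp4, the fatty acid carrier of fat cells, was at 3002, 364.5 and 426 CPM against 3402 to 3635 CPM, and Car3, a carbonic anhydrase abundant in fat, at 2175, 381 and 424.5 CPM against 1804 to 2019 CPM. Brown fat markers had summed levels of 2453, 670.0 and 217 CPM in ApoE-/- 1, 2 and 3, against 2269 to 2634 CPM, with Ucp1, the uncoupling protein, at 1592, 385 and 75.8 CPM against 1412 to 1777 CPM and Cidea, a lipid-droplet protein, at 478, 81.5 and 37.1 CPM against 433 to 558 CPM. Of the 8 brown fat markers 0 passed with all libraries and 6 rose without ApoE-/- 1. The markers did not move as 1, and ApoE-/- 1 was the highest library for 3 of the 8. Named after their values were seen, Cox8b (43.3, 5.08 and 3.48 CPM against 153 to 174 CPM) and Cox7a1 (19.5, 2.41 and 2.20 CPM against 83.8 to 92.6 CPM) were lower in every ApoE-/- library. Dio2, also named so, was higher in ApoE-/- 1 and 2 (127, 165 and 86.9 CPM against 69.0 to 96.0 CPM).

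**Figure D3:**
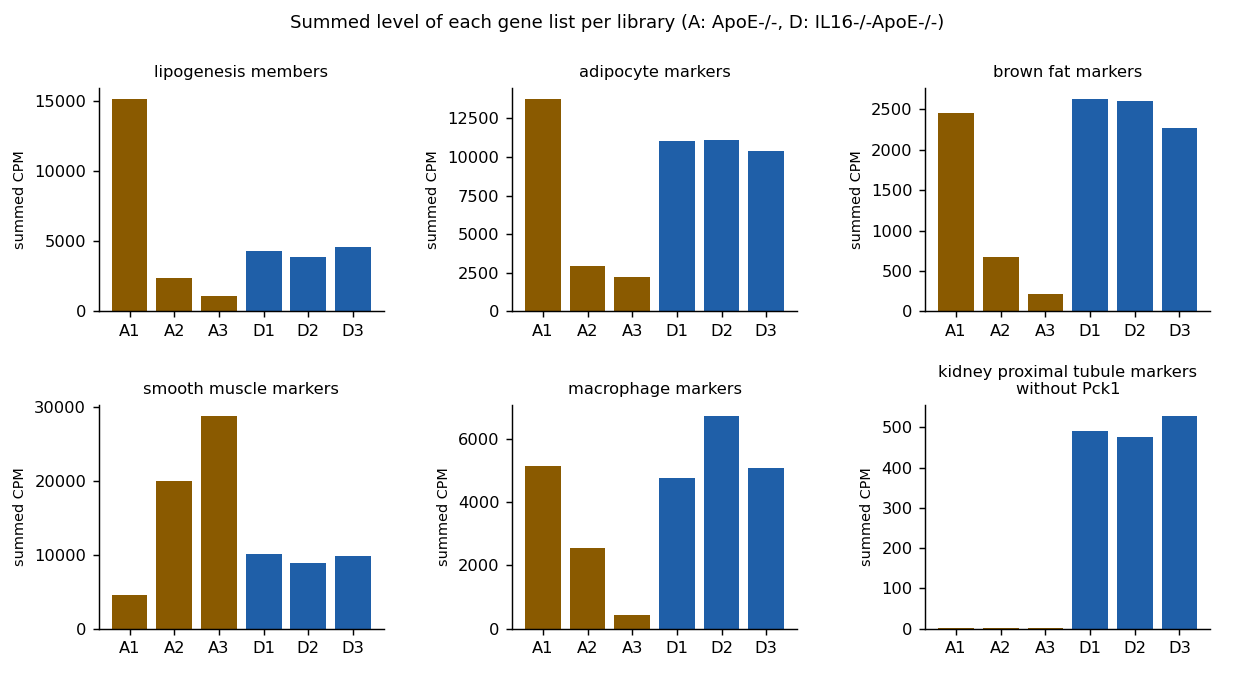
Summed CPM (bars from 0) of the lipogenesis genes and of 5 marker lists in each library, A1 to A3 for ApoE-/- and D1 to D3 for the double knockouts. The summed adipocyte markers are at 13783 CPM in A1 and 10411 to 11102 CPM in D1 to D3, though single markers differ more. The lipogenesis genes are at 15180 CPM in A1 and 3859 to 4568 CPM in D1 to D3.

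Between ApoE-/- 1 and the double knockouts, the ratio was larger for the summed lipogenesis genes than for the summed fat cell markers. The lipogenesis sum was 15180 CPM in ApoE-/- 1, 2386 and 1105 CPM in ApoE-/- 2 and 3, and 3859 to 4568 CPM in the double knockouts. The ratio of this sum to the adipocyte sum was 1.10, 0.808 and 0.504 in ApoE-/- 1, 2 and 3 and 0.388, 0.348 and 0.439 in double knockouts 1, 2 and 3, with the adipocyte sum itself lower in ApoE-/- 2 and 3. Scd1 and Fasn made up 78.9% of the lipogenesis sum in ApoE-/- 1 and 62.2% to 66.1% in the double knockouts. For single genes, the ratio of ApoE-/- 1 to the double knockout mean was highest for Fasn (4.48-fold), Scd1 (4.34-fold), Elovl6 (3.71-fold) and Me1 (3.12-fold). It was lowest for Srebf1 (1.24-fold) and Scd2 (0.763-fold), with a median of 2.57-fold over the 10. The median for adipocyte markers was 1.52-fold and for all genes with a mean of at least 1 CPM 1.01-fold. Single adipocyte markers ran from 0.0435-fold (Lep) to 2.36-fold (Retn). Fasn per Adipoq, the gene of adiponectin, was 6.26, 6.23 and 2.60 in ApoE-/- and 1.85, 1.67 and 2.95 in the double knockouts. Scd1 per Adipoq was 15.9, 15.6 and 7.06 in ApoE-/- and 5.57, 4.85 and 6.27 in the double knockouts, without overlap.

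Each gene was then set against the mean log2 CPM of the 14 adipocyte markers in the same library. The marker mean itself was 8.73, 6.50 and 6.23 log2 CPM in ApoE-/- 1, 2 and 3 and 8.56, 8.53 and 8.47 in the double knockouts, 1.37 higher on average. A gene with equal log2 means in both groups therefore reads -1.37 on this scale, and the median over all tested genes was -1.36, so the sign is set largely by the subtraction. The 10 genes read from -1.93 (Me1) to -0.22 (Thrsp), all but Me1 above that no-change value, and the nearly level Scd2 read -1.13. For Me1 the values were -0.28, 0.23 and 0.72 in ApoE-/- 1, 2 and 3 and -1.71, -1.80 and -1.62 in the double knockouts, without overlap. For Acly they were 0.20, 0.81 and 0.19 against -0.88, -0.97 and -0.56, also without overlap. These 2 of 10 compare with 20.8% of all tested genes whose groups separated after the same subtraction, 17.8% with the double knockouts below. Both had the smallest p that 3 against 3 allows (exact two-sided permutation test, p = 0.1, adjusted p = 0.5 over 10 genes), so neither passed. The other 8 genes overlapped, with exact permutation p from 0.2 to 0.9. This depended on the reference. Against Adipoq alone, Acaca (-1.06), Acacb (-0.69), Acly (-1.39), Scd1 (-1.12), Me1 (-2.13) and Thrsp (-0.41) each had an exact permutation p of 0.1. Fasn had 0.2, and Scd2, Elovl6 and Srebf1 had 0.4. Adipoq itself was 1.56 log2 units higher in the double knockouts. The share of all genes separating against Adipoq was not computed. Against the 14 markers and without ApoE-/- 1, the differences for Thrsp and Elovl6 were 0.12 and 0.01, and the other 8 stayed negative. The no-change value there is lower than -1.37, since ApoE-/- 2 and 3 had the lowest marker means. Scd2 and Me1, with log2 fold changes of 0.15 and -0.04 in the fit without ApoE-/- 1, read -1.99 and -2.19. A negative sign there is therefore again set largely by the subtraction.

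**Figure D4:**
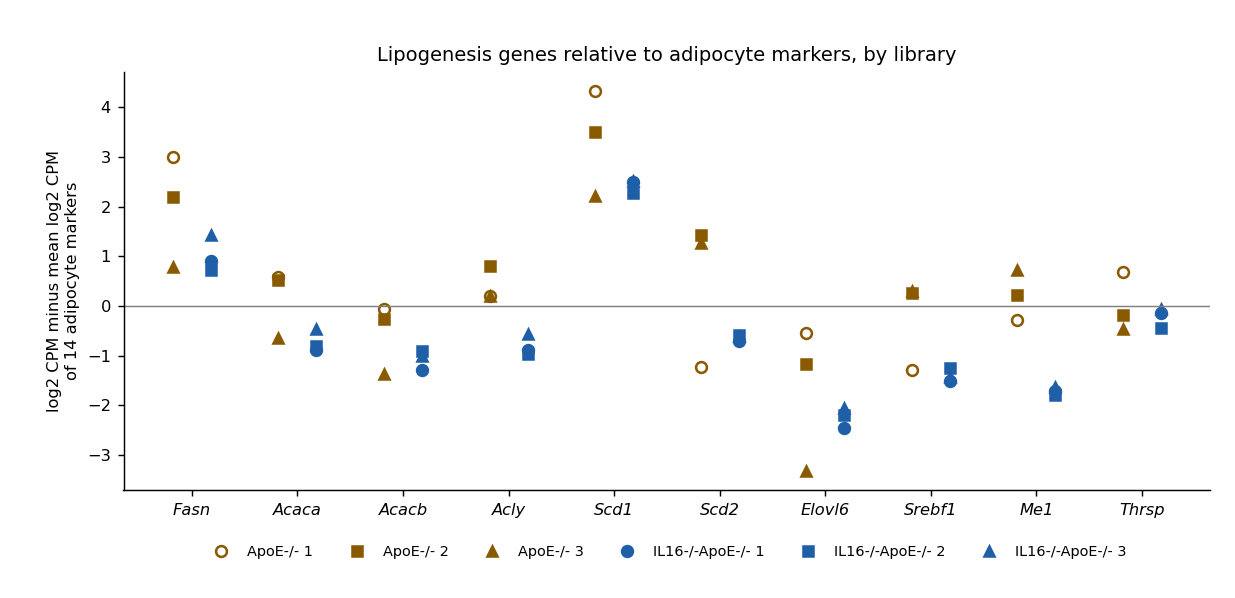
Log2 CPM of each gene minus the mean log2 CPM of 14 adipocyte markers in the same library, 1 point per library (ApoE-/- brown, ApoE-/- 1 open, double knockouts blue). The double knockouts lie below all ApoE-/- points for Acly and Me1 and overlap them for the other genes; a gene with equal log2 means would differ by -1.37.

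Markers of other cells also varied between libraries. Smooth muscle markers ran the other way, with summed levels of 4493, 19960 and 28768 CPM in ApoE-/- 1, 2 and 3 and 8943 to 10155 CPM in the double knockouts, led by Acta2 and Myh11, and 0 of 10 passed with all libraries while 9 fell without ApoE-/- 1. Macrophage markers, led by Lyz2 and C1qa, summed to 5160, 2538 and 441 CPM against 4758 to 6732 CPM (0 of 10 passed, 2 rose without ApoE-/- 1). Schwann cell markers, led by Pmp22 and Mbp, were at 196 to 245 CPM against 319 to 364 CPM (0 of 10, and 3 rose without ApoE-/- 1). Of 10 proximal tubule markers of the kidney, 5 had no count in any ApoE-/- library, and 7 rose with all libraries, among them Kap at 349 to 389.5 CPM in the double knockouts. Pck1, which fat cells also express, was at 1486, 226 and 117 CPM in ApoE-/- and 878 to 1051 CPM in the double knockouts, and the other 9 markers summed to 1.30 to 2.66 CPM against 475 to 528 CPM. Hepatocyte markers were low, with Alb at 43.5 CPM in ApoE-/- 2 and at most 2.79 CPM elsewhere, apart from Cyp2e1, present at 384, 49.8 and 41.1 CPM against 146 to 162 CPM (0 of 8 tested passed, and 1 of 10 rose without ApoE-/- 1). Skeletal muscle markers, led by Acta1 and Atp2a1, summed to 3.51 to 12.0 CPM against 21.7 to 395.5 CPM (0 of 10, and 6 rose without ApoE-/- 1). In all 10 of them every double knockout lay above every ApoE-/- library, against 14.9% of tested genes. The same held for 9 kidney, 7 Schwann cell and 3 macrophage markers, and for 0 smooth muscle and 0 hepatocyte markers. Over all tested genes, 1.14% rose with all libraries, and 13.1% rose and 12.8% fell without ApoE-/- 1. The part of any of these cells in the levels of the lipogenesis genes was not tested.

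Other genes of the pathway were read from the same fit. Of 15 genes that supply carbon and NADPH, 0 passed with all libraries (median log2 fold change 0.28). The smallest p were those of hexokinase Hk2 (0.71, SE 0.37, adjusted p = 0.390) and citrate synthase Cs (0.81, SE 0.52, adjusted p = 0.475). Without ApoE-/- 1, 14 of the 15 rose (median 1.17), all but the pentose phosphate enzyme G6pdx (0.57, adjusted p = 0.183). Over all tested genes, 13.1% rose in that fit. Among 17 genes of acyl-CoA use and triglyceride assembly, 0 passed with all libraries and 11 rose without ApoE-/- 1 (medians 0.37 and 1.36). First by p were the monoacylglycerol acyltransferases Mogat1 (1.54, SE 0.71, adjusted p = 0.353) and Mogat2 (0.91, SE 0.59, adjusted p = 0.476). For 15 of these 17 and for 14 of the 15 supply genes ApoE-/- 1 was the highest of the 6 libraries (22.6% of tested genes).

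ApoE-/- 1 was the highest library for 13 of 27 regulators and for 4 of 15 other elongases and desaturases, against 22.6% of all tested genes. Of the regulators, 0 passed with all libraries (median log2 fold change -0.02, and -0.09 without ApoE-/- 1). Nr1h2, encoding the oxysterol receptor LXR beta, was at 93.3, 88.5 and 112 CPM in ApoE-/-, against 63.4, 63.4 and 63.3 CPM in the double knockouts (log2 fold change -0.63, SE 0.15, adjusted p = 0.121). Scap, the escort of SREBP from the endoplasmic reticulum, was at 53.5 to 61.4 CPM against 39.0 to 44.7 CPM (-0.43, adjusted p = 0.214). In 6 of the 27 all double knockouts lay below all ApoE-/- libraries (11.5% of tested genes) and in 0 above (14.9%). Without ApoE-/- 1, 5 rose and 5 fell, against 13.1% and 12.8% of all tested genes. The 5 that rose, named after their values were seen, were the adipogenic factors Pparg (log2 fold change 2.00) and Cebpa (2.02), ChREBP (Mlxipl, 1.76), LXR alpha (Nr1h3) and the insulin-signalling kinase Akt2 (0.45). The 5 that fell were Srebf2, which drives cholesterol synthesis (-1.03), the AMPK subunit Prkaa2 (-0.95), Sp1 (-0.68), Nr1h2 (-0.67) and Scap (-0.45).

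Of 15 other elongases and desaturases, 0 passed with all libraries (median 0.15, and 0.20 without ApoE-/- 1), with Elovl1 (0.41, SE 0.14, adjusted p = 0.238) and Elovl7 (0.66, SE 0.31, adjusted p = 0.356) first by p. Without ApoE-/- 1, the ketoacyl reductase of elongation Hsd17b12 rose (0.95, adjusted p = 0.0187), as did the desaturase Scd3, which had no count in ApoE-/- 2 and 3 and 0.698 to 1.57 CPM in the double knockouts. The desaturase Fads1 fell (-0.58, adjusted p = 0.0146). These 3 were named after their values were seen. The separate fatty acid synthesis of mitochondria makes the lipoate precursor. Without ApoE-/- 1, 6 of its 9 genes rose, against 13.1% of all tested genes, and 0 passed with all libraries (medians 0.81 and 0.41). The leading members with all libraries were Lipt1 (0.49, SE 0.29, adjusted p = 0.444) and the acyl carrier Ndufab1 (0.70, SE 0.52, adjusted p = 0.531).

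Across the 6 libraries the log2 CPM of 9 members, all but Scd2, correlated with each other at Pearson's r of 0.553 to 0.999, with a median of 0.938 over 36 pairs. The highest pair was Fasn with Acly and the lowest Acacb with Me1. Scd2 correlated with the other 9 at -0.723 (Me1) to 0.109 (Elovl6). These are descriptions over 6 libraries that share 1 normalization, and ApoE-/- 1 is an extreme point in nearly all of them. High values were common: of 15479 genes, members possibly among them, 836 had a higher r with Fasn than Srebf1 had (0.900). For Thrsp (0.925) this number was 520, for Me1 (0.709) 3205, for Acacb 172 and for Elovl6 51. It was at most 6 for Acaca, Acly and Scd1. Among 13558 other genes with a mean of at least 1 CPM, the profiles most like that of Fasn were those of Mrps22 and Gstm4 (both r = 0.996), Tmem140 and Acsf2 (both 0.993) and Eif2ak1 (0.992). Most like the mean standardised profile of the 10 genes were Klb and H2-Q10 (both 0.998), Ctns (0.997), Pde3b and Apold1 (both 0.996). Klb, the co-receptor for FGF21, was at 28.1, 4.52 and 1.33 CPM in ApoE-/- and 8.59 to 10.8 CPM in the double knockouts. Pde3b, the phosphodiesterase through which insulin restrains lipolysis, was at 282, 62.1 and 32.6 CPM against 108 to 115 CPM.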

How the data were processed

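RNA from 6 mouse aorta samples (3 ApoE-/-, 3 IL16-/-ApoE-/-) was captured on oligo(dT) beads and made into strand-marking libraries, per the labels' protocols. The authors deposited a table of raw counts per gene with no normalization, as its whole numbers show. Per the submitters' processing notes, the tools included cutadapt, HISAT2 and StringTie (versions not given). No source used here gives the counting program, its strand setting or the genome build. Of 55401 gene IDs, 55141 matched a symbol and position in GENCODE M21 (GRCm38), the source of all coordinates and of lengths (median over basic transcripts). Promoter sequences are from RefSeq (GRCm38.p6). Genes overlapping the members on the annotation held few counts, except Rai1, which overlaps Srebf1 on the opposite strand with 1237 to 3166 counts per library.

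Genes were kept by filterByExpr (minimum count 10, minimum total 15), scaled by TMM and compared over all 19833 genes with edgeR's quasi-likelihood test (robust, two-sided, no covariate, Benjamini-Hochberg, threshold 0.05). The SE is the log2 fold change divided by the square root of F. Log2 CPM used a prior count of 2. The fit was run on counts simulated with the same trended dispersion in both groups and no outlying library. That run therefore does not cover groups of unequal spread such as these. Exact permutation tests served single values. Versions were R 4.3.3, edgeR 4.0.16, limma 3.58.1, DESeq2 1.42.0, Python 3.11.15, scipy 1.17.1 and matplotlib 3.10.9.

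The members and gene lists were chosen with earlier results of these data known. Elovl3 is in both the brown fat and the elongase list. Besides the 10 members, Il16 and Apoe, each pathway list contributes up to 4 members past the threshold, or else the 2 with the smallest p, each marker list its sum and its 2 most abundant genes, and the profile comparison 5 genes each. The sum of kidney markers without Pck1 was chosen after seeing the data. Alternatives were other scalings, filters and tests, a replicate block, removal of the length trend, and leaving out each library.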

Additional observations from a re-analysis of the deposited data

How the results depend on the processing

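Across 15 alternatives, 149 values of the 10 genes were computed, of which 119 kept their direction and side of the threshold, 26 reversed and 4 passed the threshold in the same direction. Only limma-voom with sample weights (1 gene) and leaving out 1 library (0 to 3, the 3 without ApoE-/- 1) moved the number of the 10 past the threshold as higher. The log2 fold changes of Fasn, Acaca, Acly, Scd1 and Elovl6 turned positive with limma-voom (0.42, 0.51, 0.18, 0.45 and 0.82), with sample weights (0.87, 0.82, 0.42, 0.92 and 1.11) and with the replicate block (0.44, 0.53, 0.17, 0.51 and 0.87). These fits other than the block average log values per library, whose group differences are positive for these genes; the cause under the block was not tested. Leaving out 1 library at a time gave -1.33 to 1.48 for Fasn, -0.77 to 1.33 for Acaca, -0.46 to 1.75 for Acacb, -0.62 to 0.79 for Acly, -1.28 to 1.51 for Scd1, -1.08 to 1.72 for Elovl6, -0.012 to 0.476 for Srebf1 and -0.26 to 2.25 for Thrsp, the highest always without ApoE-/- 1. Relative to adipocyte markers it gave -1.38 to 0.013 for Elovl6 and -0.46 to 0.12 for Thrsp, and the log2 difference of the Scd1 to Scd2 ratio ran from -0.77 to 1.55.

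Of all genes, 226 were higher and 12 lower. DESeq2 gave 1235 and 462, limma-voom 386 and 23, sample weights 1863 and 1488, removing the length trend 143 and 21, and leaving out 1 library 0 to 2651 and 0 to 2580. The replicate block gave 0 and 0 with 2327 genes at an unadjusted p under 0.05, against 3154 without it. Same-numbered libraries had deviations correlated at -0.04, -0.03 and -0.01, and differently numbered ones at -0.075 to 0.09. With 3 libraries a group, this check cannot tell whether the numbers pair them. The block called 0 of the 10. Scd2 and Me1 kept their sign under every alternative run, while leaving out ApoE-/- 2 or 3 turned Acacb (-0.31 and -0.46) and Thrsp (-0.21 and -0.26), ApoE-/- 3 turned Srebf1 and double knockout 2 turned Acacb (-0.04). With 3 libraries a group, differences between the groups in these 10 genes were not resolved, although every one of the 10 had at least 599 counts in each library.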
